A study of Homo sapiens with 12 samples.

Results

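The 8 genes TCP1, CCT2, CCT3, CCT4, CCT5, CCT6A, CCT7 and CCT8 encode the subunits of CCT (also called TRiC), the chaperonin of the cytosol. They were taken by gene symbol from the 60554 Ensembl gene IDs in the count files, and each symbol matched 1 ID. All 8 passed the filter on low counts that left 29003 genes for testing. Poly(A) RNA-seq libraries had been made from cultured human embryonic kidney cells at passage 10. Their source is labelled HEK293, while the cell line is labelled HEK293T, its derivative with the SV40 large T antigen. RBM17 knockdown, U2SURP knockdown and CHERP knockdown cells had received ON-TARGETplus SMARTpool siRNA against that gene, and control cells an ON-TARGETplus non-targeting siRNA (#3), which the series record calls a scramble. Each of the 4 groups had 3 libraries, the label of the control names no pool, and no time after transfection or siRNA dose is given in the sources used here. The siRNA targets encode RNA-binding proteins associated with the U2 small nuclear ribonucleoprotein of the spliceosome. The design asks how RNA levels change when each is depleted.

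CCT is built from stacked rings, and each ring holds a single copy of every one of the 8 subunits in a fixed order, around a chamber that closes when the subunits hydrolyse ATP. Newly made actin, tubulin and many WD40-repeat proteins fold inside it, handed over in part by the co-chaperone prefoldin. Work on the yeast complex places TCP1, CCT2, CCT4 and CCT5 on the side of the ring that binds ATP more tightly and CCT3, CCT6A, CCT7 and CCT8 on the other side. The 8 genes lie apart in the genome (GRCh38). They are TCP1 (ENSG00000120438, chr6:159778498-159789749, minus strand), CCT2 (ENSG00000166226, chr12:69585334-69601570, plus strand), CCT3 (ENSG00000163468, chr1:156308968-156367873, minus strand) and CCT4 (ENSG00000115484, chr2:61868089-61888804, minus strand). The other members are CCT5 (ENSG00000150753, chr5:10249921-10266412, plus strand), CCT6A (ENSG00000146731, chr7:56051630-56063989, plus strand), CCT7 (ENSG00000135624, chr2:73233420-73253021, plus strand) and CCT8 (ENSG00000156261, chr21:29055805-29073797, minus strand). Only CCT4 and CCT7 share a chromosome.

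Promoter windows of 300 bases, from 250 before to 50 after the transcription start given by RefSeq (GRCh38.p14), were present for 7 of the 8 members, in 9 windows, CCT6A being the exception. Windows of TCP1, CCT3, CCT4 and CCT7 are shown because they differ in the short motifs they hold and because CCT4 and CCT7 lay at opposite ends of the response to U2SURP knockdown, a choice made after the values were seen. Capitals mark motif matches on either strand, and each sequence is written 5′ to 3′ in the direction of the gene. No match overlaps another in these windows. The coordinates are chr6:159789553-159789852 (minus strand) for TCP1, chr1:156338243-156338542 (minus strand) for CCT3, chr2:61888607-61888906 (minus strand) for CCT4 and chr2:73234058-73234357 (plus strand) for CCT7.
TCP1: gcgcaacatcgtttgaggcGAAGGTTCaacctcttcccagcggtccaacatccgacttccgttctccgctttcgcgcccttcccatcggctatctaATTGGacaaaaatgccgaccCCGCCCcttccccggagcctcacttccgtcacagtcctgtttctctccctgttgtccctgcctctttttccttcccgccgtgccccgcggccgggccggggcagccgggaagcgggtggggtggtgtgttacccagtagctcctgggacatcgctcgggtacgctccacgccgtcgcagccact
CCT3: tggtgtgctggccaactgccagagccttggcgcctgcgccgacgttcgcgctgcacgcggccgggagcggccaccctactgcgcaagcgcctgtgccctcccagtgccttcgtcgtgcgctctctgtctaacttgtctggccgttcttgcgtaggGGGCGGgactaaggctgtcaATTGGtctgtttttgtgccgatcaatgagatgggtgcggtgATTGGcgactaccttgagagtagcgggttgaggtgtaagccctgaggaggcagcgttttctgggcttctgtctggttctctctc
CCT4: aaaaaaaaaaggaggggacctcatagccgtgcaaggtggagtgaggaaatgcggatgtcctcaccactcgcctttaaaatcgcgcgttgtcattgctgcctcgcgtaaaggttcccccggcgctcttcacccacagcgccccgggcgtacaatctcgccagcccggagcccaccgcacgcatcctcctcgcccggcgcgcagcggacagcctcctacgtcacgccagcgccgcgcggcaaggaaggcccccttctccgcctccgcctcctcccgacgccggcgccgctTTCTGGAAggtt
CCT7: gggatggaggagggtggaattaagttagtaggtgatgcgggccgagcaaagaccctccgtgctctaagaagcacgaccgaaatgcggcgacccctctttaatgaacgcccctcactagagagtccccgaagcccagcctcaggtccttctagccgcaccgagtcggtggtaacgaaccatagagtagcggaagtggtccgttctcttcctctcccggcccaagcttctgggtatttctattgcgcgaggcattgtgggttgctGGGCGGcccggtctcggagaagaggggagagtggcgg

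Of the 7 motifs searched on both strands, CCAAT occurred in TCP1, CCT2, CCT3 and CCT8, and in 34.6% of 35116 RefSeq windows of the same length. The GC box GGGCGG occurred in 5 members, against 45.0% of all windows, with no match in the windows of CCT4 and CCT5. A pair of heat shock element units occurred as GAANNTTC in TCP1 and in the further window of CCT2 (6.77% of all windows), and as TTCNNGAA in CCT4 (7.74%), in the part after its start. The ETS core CCGGAA was found in CCT2 and CCT5 (17.2% of all windows) and GCGCATG, part of the NRF1 motif, in CCT2 (4.43%). The E-box CACGTG was in none of the 7 members with a window and in 7.26% of all windows. A match is only a run of letters in these windows, and no motif was shared by all 7. The RefSeq start lay inside the GENCODE gene by 616 bases for CCT5, 888 for CCT7, 555 for the further window of CCT2 and 29581 for CCT3. In the other windows it lay 125 to 149 bases inside. The lack of a motif in a window therefore says nothing of transcript starts further upstream.

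Library totals ran from 252505520 to 320986785 gene counts, and each subunit had between 64358 and 313735 counts in every library, so counting error was at most 0.394% of a value. The siRNA target fell to 26.5 ± 0.523 CPM in RBM17 knockdown against 115 ± 2.73 CPM in control for RBM17, to 144 ± 5.65 against 471 ± 33.3 CPM for U2SURP, and to 17.97 ± 0.788 against 61.3 ± 1.06 CPM for CHERP (SD, n = 3 each). CPM are counts relative to library size after scaling by TMM. Beside the targets, the mitochondrially encoded share of counts was 4.64% to 5.02% in RBM17, 4.94% to 5.15% in U2SURP and 3.98% to 4.61% in CHERP knockdown, against 7.88% to 8.70% in control. The 4 HEK293 markers were present in every library, with 3, 0 and 1 called higher and 0, 2 and 2 lower in RBM17, U2SURP and CHERP knockdown. Of all tested genes 25.4%, 21.1% and 22.8% were called higher and 29.3%, 22.2% and 24.6% lower in these comparisons. Counts over 4 genes are too small to be read against these shares. PAX2 averaged 1.58 ± 0.194, 0.907 ± 0.130 and 0.516 ± 0.0331 CPM in these knockdowns, against 1.25 ± 0.150 CPM in control, and NEFM 300.3 ± 20.8, 232 ± 11.4 and 146 ± 8.15 CPM against 259 ± 10.8 CPM. NEFL averaged 119 ± 14.9, 87.7 ± 6.34 and 88.8 ± 9.14 CPM against 77.1 ± 6.41 CPM in control, and VIM 295 ± 22.8, 281 ± 17.2 and 396 ± 38.6 CPM against 262 ± 19.9 CPM (SD, n = 3 each). The 5 blood markers summed to at most 0.547 CPM in any library, with HBB at 0 throughout. The summed level of 5 fibroblast markers was 12.3 to 14.3 CPM in RBM17, 10.4 to 14.4 in U2SURP and 10.1 to 13.3 in CHERP knockdown, against 16.8 to 22.3 in control, nearly all of it COL1A1. The 5 markers of differentiated epithelium summed to 6.63 to 7.06, 5.04 to 5.37 and 5.08 to 5.13 CPM in RBM17, U2SURP and CHERP knockdown, against 8.26 to 8.71 CPM in control. The part of these shifts in the results below was not tested.

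All 8 CCT subunit mRNAs were higher in every knockdown than in control, and the rise was largest in RBM17 knockdown. In RBM17 knockdown 8 of 8 members were called higher, with a median log2 fold change of 0.79 (0.64 to 0.92). Of all tested genes 54.7% were called there, 25.4% higher, and the median over all genes was -0.10. In CHERP knockdown 8 of 8 were called higher, with a median of 0.47 (0.35 to 0.69), against 47.3% of all genes called, 22.8% higher, and a median of -0.004. In U2SURP knockdown 8 of 8 were called higher, with a median of 0.30 (0.16 to 0.54), against 43.3% of all genes called, 21.1% higher, and a median of -0.025. A call is a Benjamini-Hochberg adjusted p under 0.05 over all 29003 genes from edgeR's quasi-likelihood test. In each of these comparisons the 3 knockdown libraries all lay above the 3 control libraries for 8 of 8 members. Over all genes such separation upward occurred for 27.0%, 25.3% and 27.0% in RBM17, U2SURP and CHERP knockdown. Among the 2191 protein-coding genes with a mean of at least 100 CPM, the class the subunits belong to, 55.9%, 47.9% and 45.5% were called higher in RBM17, U2SURP and CHERP knockdown, with medians of 0.20, 0.12 and 0.09. The 3 comparisons share the control libraries, so their values are given side by side and not as separate evidence. The labels do not say whether the 3 libraries of a group came from separate cultures. The p-values therefore rest on a spread between libraries that may be technical. Library numbers are consecutive within each group and the labels name no batch. Groups and any batch that followed these numbers therefore cannot be told apart. In bulk RNA, a change in the cells present and a change in the RNA per cell cannot be told apart either.

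Summed over the 8 members, CCT mRNA came to 4428, 5340.4 and 5175 CPM in RBM17 knockdown, to 3463, 3798 and 3693 CPM in U2SURP knockdown and to 3957, 4186 and 4269 CPM in CHERP knockdown, against 2786, 2814 and 3143 CPM in control. Every knockdown library exceeded every control library, and the RBM17 knockdown libraries stood above all others. The group means were 1.71, 1.25 and 1.42 times the control mean. As a share of raw counts the members took 0.440% to 0.502% in RBM17, 0.350% to 0.379% in U2SURP and 0.407% to 0.432% in CHERP knockdown, against 0.287% to 0.307% in control. For all 8 members the lowest library of each knockdown was library 1, and the highest control library was library 3, whose TMM factor of 0.976 was below those of control libraries 1 and 2 (1.032 and 1.044). In summed TPM, a level per transcript length that this factor does not enter, the controls were closer together, at 2612, 2715 and 2722 TPM.

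**Figure D1:**
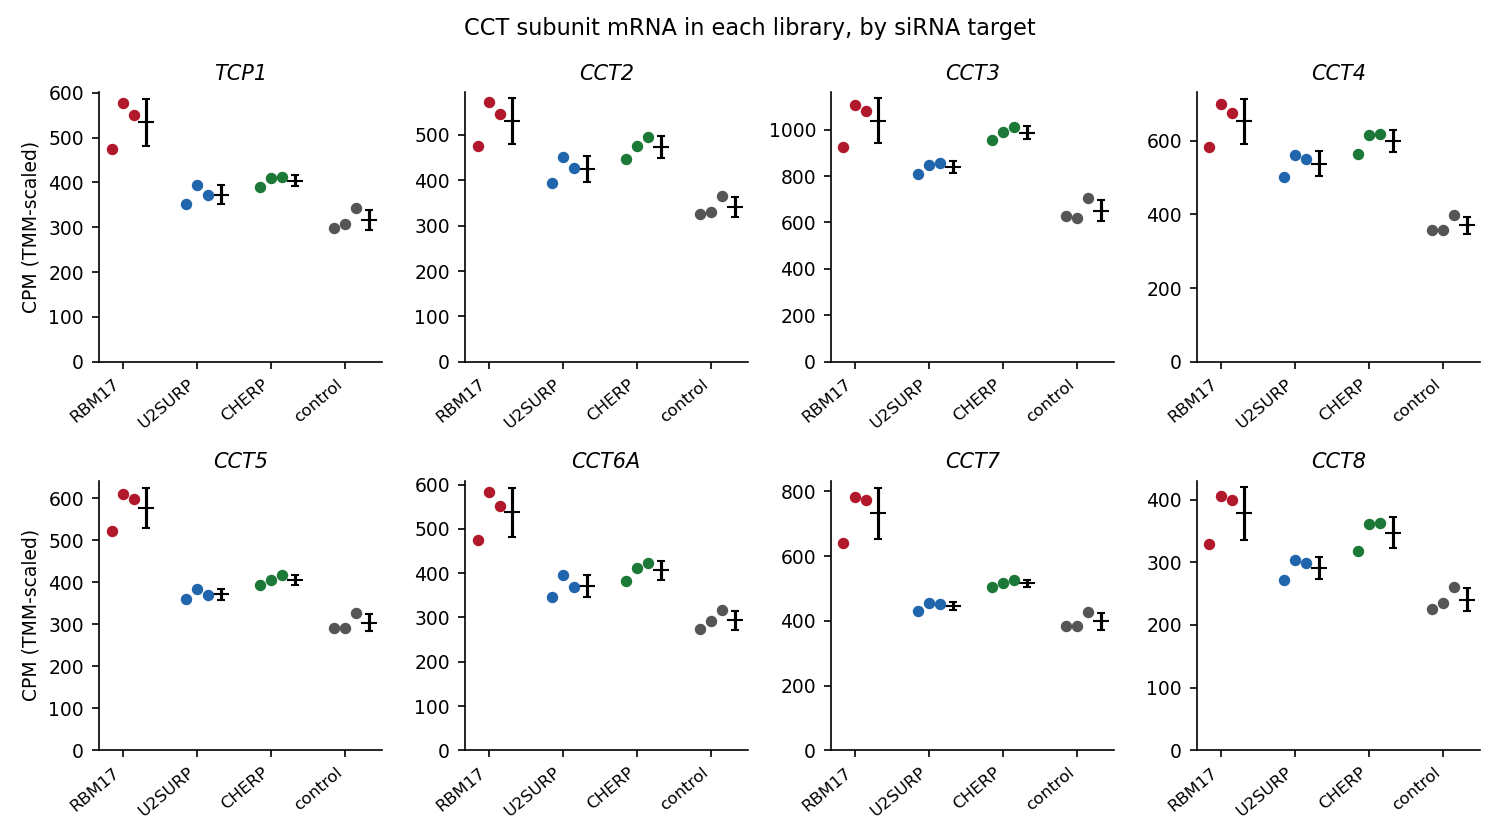
CPM (TMM-scaled, linear axis from 0) of each CCT subunit mRNA in each library, grouped by siRNA target; points are libraries and the bar beside them is the mean ± SD (n = 3). In every panel the 3 libraries of each knockdown lie above the 3 control libraries, and RBM17 knockdown library 1 lies below the other 2 of its group.

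Among the subunits of the side that binds ATP tightly in yeast, TCP1, the first member to be described and named after the mouse t-complex, had 476, 577 and 551 CPM in RBM17, 352, 394 and 372 in U2SURP and 390.0, 409.7 and 412 in CHERP knockdown libraries, against 299, 307 and 342 CPM in control. The RBM17 knockdown libraries were the highest of the 12, and U2SURP and CHERP knockdown overlapped each other. TCP1 rose by 0.76 ± 0.066 (SE) on the log2 scale in RBM17 (adjusted p = 1.16e-09), 0.24 ± 0.066 in U2SURP (adjusted p = 0.00511) and 0.35 ± 0.066 in CHERP knockdown (adjusted p = 9.62e-05), the smallest CHERP response of the 8. CCT2, the beta subunit, had 475, 572 and 546 CPM in RBM17, 395, 452 and 427 in U2SURP and 447, 477 and 497 in CHERP knockdown, against 326, 329.8 and 366 CPM in control. Here the ranges of RBM17 and CHERP knockdown overlapped, as did those of U2SURP and CHERP knockdown. CCT2 rose by 0.64 ± 0.068 in RBM17, the least of the members there, 0.32 ± 0.068 in U2SURP and 0.47 ± 0.068 in CHERP knockdown (adjusted p = 2.36e-08, 0.000465 and 3.11e-06).

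CCT4, the delta subunit, had 583, 699 and 675 CPM in RBM17, 500.2, 562 and 551 in U2SURP and 564, 615 and 618 in CHERP knockdown, against 357, 357 and 398 CPM in control. Its lowest knockdown library was well above its highest control library. RBM17 and CHERP knockdown overlapped, and the U2SURP knockdown libraries lay below both. CCT4 had the largest response of the 8 to U2SURP knockdown, 0.54 ± 0.067 (adjusted p = 6.47e-07), and to CHERP knockdown, 0.69 ± 0.067 (adjusted p = 8.65e-09), and rose by 0.82 ± 0.067 in RBM17 knockdown (adjusted p = 4.17e-10). CCT5, the epsilon subunit, in which an inherited change is known to cause a sensory neuropathy, had 522, 611 and 598 CPM in RBM17, 360.2, 385 and 369 in U2SURP and 393, 406 and 417 in CHERP knockdown, against 292, 292 and 328 CPM in control. The RBM17 knockdown libraries stood well apart from all others. CCT5 had the largest response of the 8 to RBM17 knockdown, 0.92 ± 0.061 or 1.90-fold (adjusted p = 1.67e-11), beside 0.29 ± 0.061 in U2SURP (adjusted p = 0.00044) and 0.41 ± 0.061 in CHERP knockdown (adjusted p = 4.77e-06).

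On the other side of the ring, CCT3, the gamma subunit, had 927, 1108 and 1079.6 CPM in RBM17, 807, 849.7 and 854 in U2SURP and 957, 989 and 1012 in CHERP knockdown, against 629, 619 and 703 CPM in control. RBM17 and CHERP knockdown overlapped, and U2SURP knockdown lay between them and control. CCT3 rose by 0.67 ± 0.064, 0.36 ± 0.064 and 0.60 ± 0.064 in RBM17, U2SURP and CHERP knockdown (adjusted p = 4.32e-09, 5.89e-05 and 4.39e-08). CCT6A, the zeta subunit, whose paralogue CCT6B is expressed mainly in testis, had 475, 584 and 552 CPM in RBM17, 347, 396 and 369 in U2SURP and 383, 412 and 424 in CHERP knockdown, against 274, 292 and 316 CPM in control. Only U2SURP and CHERP knockdown overlapped. CCT6A rose by 0.87 ± 0.070, 0.34 ± 0.070 and 0.47 ± 0.070 in RBM17, U2SURP and CHERP knockdown (adjusted p = 3.66e-10, 0.000392 and 6.12e-06).

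CCT7, the eta subunit, had 641, 784 and 773 CPM in RBM17, 430.3, 455 and 453 in U2SURP and 505, 516 and 527 in CHERP knockdown, against 384, 383 and 428 CPM in control. The lowest U2SURP knockdown library was barely above the highest control library, while the RBM17 knockdown libraries exceeded all others. CCT7 rose by 0.88 ± 0.065 in RBM17 (adjusted p = 9.26e-11) and 0.37 ± 0.065 in CHERP knockdown (adjusted p = 4.19e-05), and by 0.16 ± 0.065 in U2SURP knockdown, the smallest response of the 8 there (adjusted p = 0.0463, over the alternatives 0.00747 to 0.17). That last call was lost without U2SURP knockdown library 1, 2 or 3 (0.17, 0.15 and 0.15; adjusted p = 0.063, 0.135 and 0.124) and without control library 1 or 2 (0.14 each; adjusted p = 0.161 and 0.17). CCT8, the theta subunit, had 329, 405 and 400.1 CPM in RBM17, 271, 303 and 299 in U2SURP and 318, 361 and 362 in CHERP knockdown, against 225, 235 and 261 CPM in control. It was the member of lowest CPM in control, and RBM17 and CHERP knockdown overlapped. CCT8 rose by 0.65 ± 0.076, 0.28 ± 0.075 and 0.53 ± 0.075 in RBM17, U2SURP and CHERP knockdown (adjusted p = 1.96e-07, 0.0048 and 4.85e-06).

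**Figure D2:**
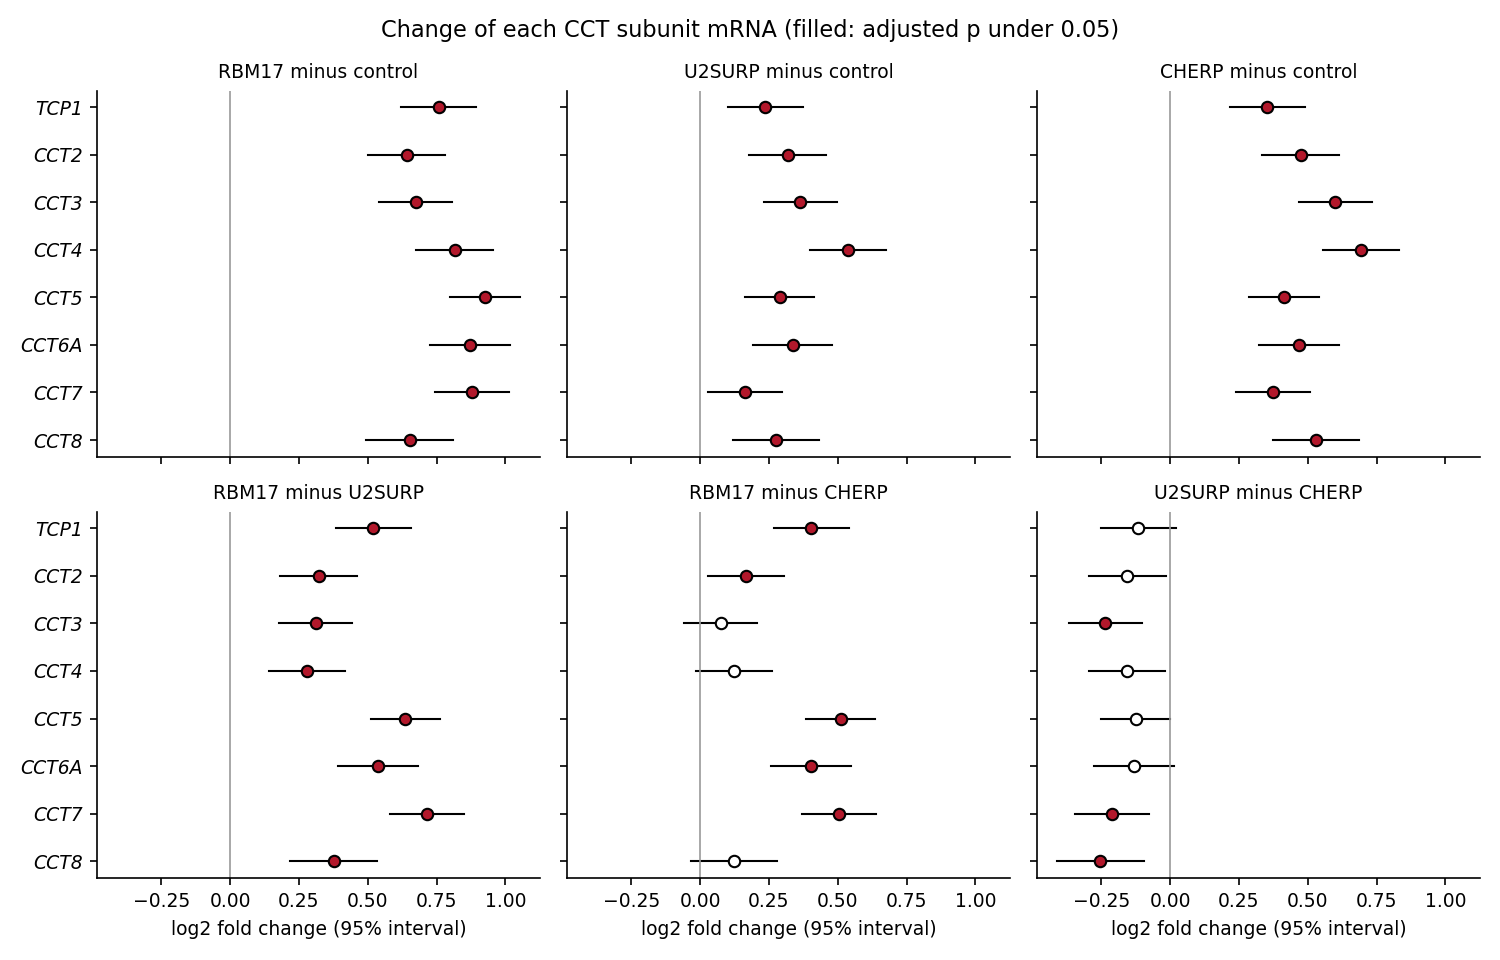
Log2 fold change (points) with its 95% interval (lines) for each CCT subunit mRNA in the 6 comparisons, filled where the adjusted p was under 0.05; the upper row sets each knockdown against control and the lower row sets knockdowns against each other. All points of the upper row are filled and right of 0, and CCT3, CCT4 and CCT8 are open in RBM17 minus CHERP.

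Set against each other directly, RBM17 knockdown had more CCT mRNA than U2SURP knockdown for every subunit, while RBM17 and CHERP knockdown differed for only some of them. For RBM17 minus U2SURP knockdown, 8 of 8 members were called higher (median 0.45, 0.28 to 0.72), where 44.5% of all genes were called and 23.0% higher, and the libraries did not overlap for any member (26.6% of all genes). Of the protein-coding genes with a mean of at least 100 CPM, 47.8% were called higher there. The difference between members was largest for CCT7 (0.72 ± 0.065, adjusted p = 4.94e-09) and CCT5 (0.64 ± 0.061, adjusted p = 1.17e-08) and smallest for CCT4 (0.28 ± 0.067, adjusted p = 0.00137). For RBM17 minus CHERP knockdown, 5 of 8 members were called higher (median of the 8 0.28), where 51.6% of all genes were called and 26.1% higher. Of the protein-coding genes with a mean of at least 100 CPM, 51.8% were called higher there, so the count of members is near the level of that class. The libraries did not overlap for 4 of 8 members, TCP1, CCT5, CCT6A and CCT7, against 28.1% of all genes. These members were called, with differences of 0.40 ± 0.066, 0.51 ± 0.061, 0.40 ± 0.070 and 0.51 ± 0.065 (adjusted p at most 3.56e-05).

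CCT2 was called in RBM17 minus CHERP knockdown with overlapping libraries (0.17 ± 0.068, adjusted p = 0.043, over the alternatives 0.0031 to 0.321). Its call was lost without RBM17 knockdown library 2 or 3 (0.11 and 0.15) and without CHERP knockdown library 1 or 2 (0.13 and 0.17; adjusted p = 0.0841 to 0.235 over these 4), and without CHERP knockdown library 3 its value was 0.26. It was also lost with protein-coding genes alone (0.086, adjusted p = 0.259) and with offsets for GC and length (0.067, adjusted p = 0.321). The 95% interval of the difference ran from -0.06 to 0.21 for CCT3 (adjusted p = 0.349), from -0.015 to 0.26 for CCT4 (adjusted p = 0.13) and from -0.035 to 0.28 for CCT8 (adjusted p = 0.186), so no difference was shown for these members, and the intervals still hold differences up to their upper bounds. CCT3 was at -0.007 with protein-coding genes alone and -0.041 with offsets for GC and length (adjusted p = 0.931 and 0.526). All 3 were called higher without RBM17 knockdown library 1 (0.15, 0.20 and 0.21; adjusted p = 0.0354, 0.011 and 0.011), which made 8 of 8. CCT4 and CCT8 were also called without CHERP knockdown library 3 (0.20 and 0.21). TCP1, CCT5, CCT6A and CCT7 kept their calls with each library left out.

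For U2SURP minus CHERP knockdown, 3 of 8 members were called lower, CCT3 (-0.24 ± 0.064, adjusted p = 0.00693), CCT7 (-0.21 ± 0.065, adjusted p = 0.0172) and CCT8 (-0.25 ± 0.075, adjusted p = 0.0143), where 27.9% of all genes were called and 12.9% lower. Of the protein-coding genes with a mean of at least 100 CPM, 15.3% were called lower there. The values of all 8 members were negative (median -0.16), and the libraries did not overlap for CCT3, CCT4, CCT5, CCT7 and CCT8 (21.0% of all genes). The intervals of the members not called were -0.25 to 0.02 for TCP1, -0.30 to -0.016 for CCT2, -0.29 to -0.019 for CCT4, -0.25 to 0 for CCT5 and -0.28 to 0.012 for CCT6A. The number called changed with single libraries. It was 1 without U2SURP knockdown library 1 or CHERP knockdown library 3, 2 without CHERP knockdown library 2 and 4 without CHERP knockdown library 1. It was 5 without the filter on low counts, where CCT2 and CCT4 passed too (adjusted p = 0.0438 and 0.0437), and 6 in a fit of both groups alone, with protein-coding genes alone or with offsets for GC and length, where CCT5 passed as well (adjusted p = 0.0319, 0.0439 and 0.0174). CCT8 lost its call in the first 3 of these (-0.19, -0.21 and -0.23; adjusted p = 0.0902, 0.074 and 0.0649), and CCT7 without U2SURP knockdown library 1 (-0.17, adjusted p = 0.0861) or CHERP knockdown library 3 (-0.18, adjusted p = 0.0666).

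In these libraries the subunits did not all rise by the same amount, and their observed balance differed between knockdowns. The log2 count of each subunit was set against the mean of the 8 in the same library, with the control mean at 0, which removes library scaling. No test was run on these deviations, which are given as descriptions, and centring on the mean of the 8 places some members above 0 and others below it by construction. They were not recomputed with offsets for GC and length. GC content of the longest transcript ran from 43.1% for CCT8 to 51.3% for CCT7, and its part in the deviations was not tested. CCT4 stood at 0.197, 0.223 and 0.244 in U2SURP knockdown and 0.187, 0.223 and 0.203 in CHERP knockdown, against 0.014, -0.006 and -0.008 in control. Relative to its partners CCT4 was thus higher in both. In RBM17 knockdown it was also above all control libraries but by less, at 0.039 ± 0.008 (SD, n = 3). CCT7 was at -0.124, -0.185 and -0.145 in U2SURP and -0.077, -0.135 and -0.132 in CHERP knockdown, but at 0.081, 0.097 and 0.124 in RBM17 knockdown, against 0.015, -0.010 and -0.005 in control. Its sign therefore differed between RBM17 knockdown and the other knockdowns, with no overlap between libraries. U2SURP and CHERP knockdown also have adjoining library numbers, and the part of that in their likeness was not tested.

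CCT5 had the highest deviation in RBM17 knockdown, 0.149 ± 0.023, with CCT6A at 0.094 ± 0.018, whereas CCT5 was at -0.026 ± 0.031 in U2SURP and -0.074 ± 0.021 in CHERP knockdown. CCT2, CCT8 and CCT3 were lowest in RBM17 knockdown, at -0.136 ± 0.012, -0.126 ± 0.029 and -0.102 ± 0.008. CCT3 was at 0.113 ± 0.021 in CHERP knockdown, and TCP1 at -0.134 ± 0.018 in CHERP and -0.078 ± 0.018 in U2SURP knockdown. The members of each side of the ring did not move as a block. CCT4 and TCP1, both of the side that binds ATP tightly in yeast, had opposite signs in U2SURP and CHERP knockdown.

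**Figure D3:**
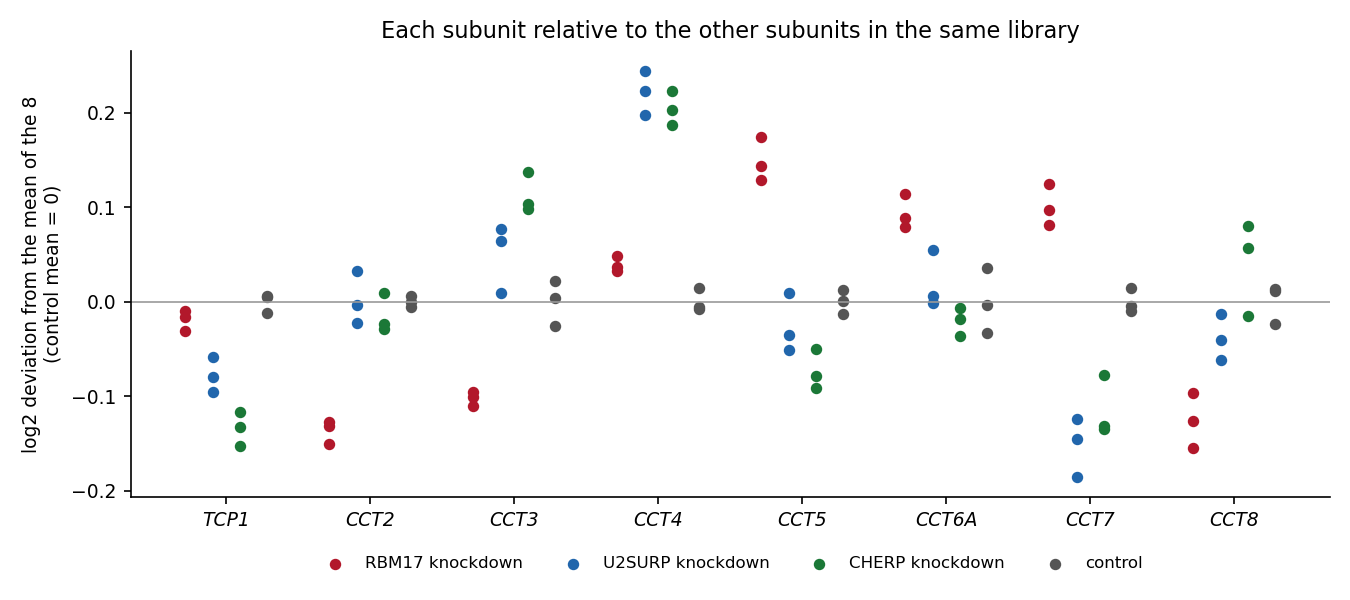
Log2 deviation of each CCT subunit mRNA from the mean of the 8 in the same library, with the control mean of that subunit at 0; each point is a library. CCT4 stands at 0.187 to 0.244 in U2SURP and CHERP knockdown, and CCT7 lies above 0 in RBM17 knockdown and below 0 in the other knockdowns.

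Per length, CCT3 was the most abundant subunit mRNA and CCT5 the least in all 4 groups, whichever transcript length was used. Over the length of all annotated exons, CCT3 had 880.1, 988 and 986 TPM in RBM17, 765, 799 and 797 in U2SURP and 934, 968 and 983 in CHERP knockdown, against 574, 580.0 and 593 TPM in control. CCT5 had 341, 375 and 376 TPM in RBM17, 235, 249 and 237 in U2SURP and 264, 273 and 279 in CHERP knockdown, against 183, 188 and 190.1 TPM in control. With these lengths the order of means in control was CCT3, CCT4, CCT7, CCT2, CCT6A, CCT8, TCP1 and CCT5, and the libraries overlapped between CCT2 and CCT6A and between CCT6A and CCT8. With the length of the longest coding transcript it was CCT3, CCT7, CCT2, CCT4, TCP1, CCT8, CCT6A and CCT5, with overlap between TCP1 and CCT8 alone. CCT4 came next after CCT3 in all groups by the length of all exons but lower by the coding transcript, so its place depended on the length taken.

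Within the knockdowns the order by all exons changed in its middle. CCT6A (507 ± 37.4 TPM) was ahead of CCT2 (452 ± 29.3 TPM) in RBM17 knockdown, and CCT2 ahead of CCT6A in U2SURP knockdown, CHERP knockdown and control. Libraries overlapped for 6 of 7 neighbouring pairs in RBM17 knockdown, where library 1 was low throughout, although the higher member was above the other in 3 of 3 libraries for each pair. CCT4 made up 18.01% to 18.22% of summed subunit TPM in RBM17, 19.81% to 20.40% in U2SURP and 19.52% to 20.06% in CHERP knockdown, against 17.47% to 17.68% in control. CCT7 made up 15.78% to 16.25%, 12.93% to 13.43% and 13.25% to 13.77% in those knockdowns, against 14.81% to 14.98% in control. Neither share overlapped between a knockdown and control.

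**Figure D4:**
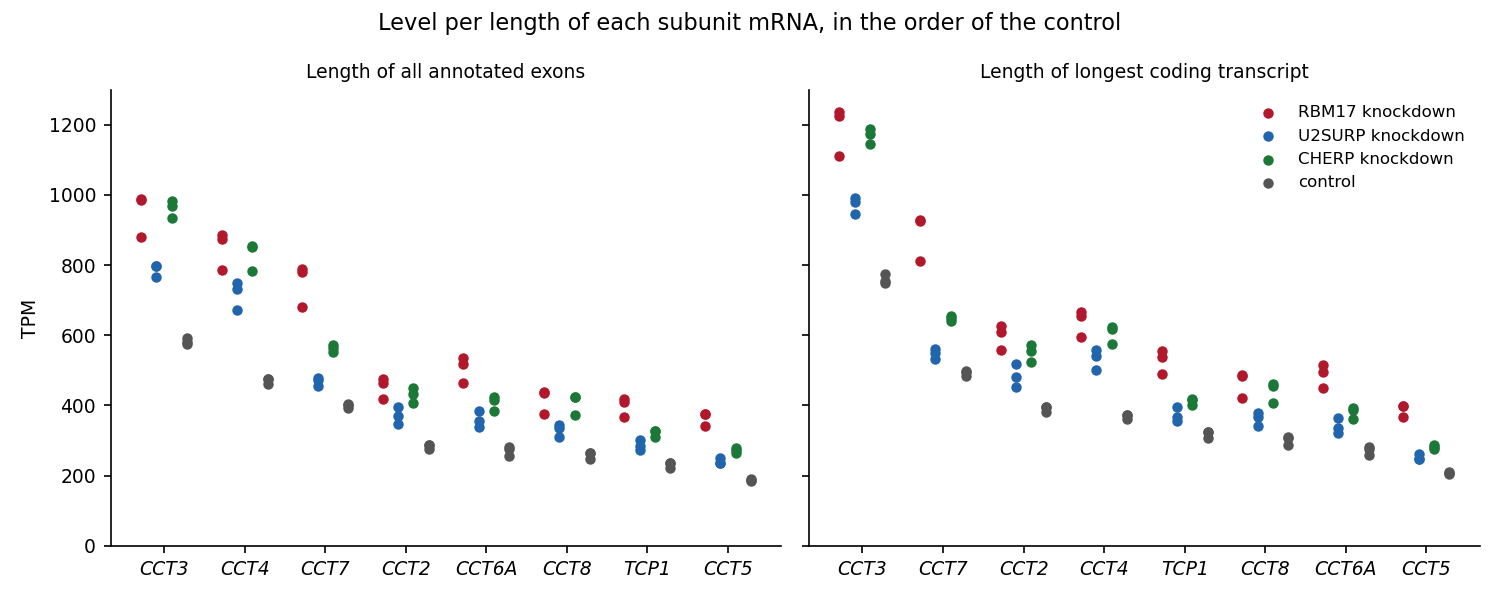
TPM (linear axis from 0) of each CCT subunit mRNA per library, with lengths from all annotated exons (left) or the longest coding transcript (right), members ordered by the control mean; each point is a library. CCT3 is highest and CCT5 lowest in both panels, and CCT4 stands nearer to CCT3 on the left than on the right.

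Other annotated genes overlap some members, and the strand setting of the counting is not given in the sources used here, so reads of a member and of a gene on the opposite strand may be mixed. The TCP1 gene shares 397 exonic bases with ACAT2, an acetyl-CoA acetyltransferase on the opposite strand, at 26.4 to 44.3 raw CPM. ACAT2 itself rose by 0.77 ± 0.057, 0.22 ± 0.057 and 0.43 ± 0.057 in RBM17, U2SURP and CHERP knockdown (adjusted p = 8.3e-11, 0.00274 and 1.06e-06), and its level was 7.97% to 8.95% of that of TCP1 in the same library. CCT4 shares 81 exonic bases with COMMD1 on the opposite strand (4.44 to 6.97 raw CPM; 0.36, 0.065 and -0.26 in the knockdowns, the second not called) and 275 with the antisense gene AC107081.2 (at most 0.793 CPM). CCT5 shares 1757 with the antisense AC012640.4 (at most 0.134 CPM). TSACC overlaps CCT3 without shared exonic bases, and intronic or exonic small nucleolar RNA genes (SNORA20 and SNORA29 in TCP1, SNORA15 and SNORA22B in CCT6A) were at most 0.388 CPM. The sense intronic gene AF129075.1 in CCT8 was at most 1.04 CPM.

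Processed and unprocessed copies of the members could draw reads from them, and 13 pseudogenes named after a member were in the files. The highest was CCT6P1, whose mean count was 4.27% of that of CCT6A. It averaged 15.04 ± 0.679 CPM, 19.2 ± 0.720 and 16.4 ± 0.577 in RBM17, U2SURP and CHERP knockdown, against 17.7 ± 0.561 CPM in control (SD, n = 3 each). CCT6P1 fell by 0.24 ± 0.059 in RBM17 knockdown (adjusted p = 0.00133), where CCT6A rose, and CCT6P3 fell by 0.49 ± 0.061 there (adjusted p = 3.12e-07). CCT8P1, at 1.36 to 2.28 raw CPM, rose by 0.58 ± 0.13, 0.40 ± 0.13 and 0.52 ± 0.13 in RBM17, U2SURP and CHERP knockdown (adjusted p = 0.00039, 0.0127 and 0.00139).

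Relatives of the subunits that stand outside the ring were called higher in 1, 2 and 2 of 4 tested genes in RBM17, U2SURP and CHERP knockdown and lower in 0, while the fifth listed, CCT8L2, did not pass the filter. Of all tested genes 25.4%, 21.1% and 22.8% were called higher and 29.3%, 22.2% and 24.6% lower in these comparisons, so the RBM17 count is at the level of all genes. The same shares stand beside the lists that follow. Over protein-coding genes, the class of these lists, 38.7%, 29.4% and 29.7% were called higher in RBM17, U2SURP and CHERP knockdown. With a mean of at least 100 CPM, which not all listed genes reached, it was 55.9%, 47.9% and 45.5%. From the co-chaperone and client lists, the genes named are those of smallest p in a knockdown. A knockdown not given for such a gene may still hold a change. CCT6B had 2.58, 2.36 and 2.12 CPM in RBM17, 2.38, 2.71 and 2.57 in U2SURP and 2.47, 2.91 and 2.87 in CHERP knockdown, against 1.74, 2.22 and 2.13 CPM in control. It was far below CCT6A everywhere and was called higher in U2SURP (0.33 ± 0.11, adjusted p = 0.0189) and CHERP knockdown (0.44 ± 0.11, adjusted p = 0.00223), with 0.21 ± 0.11 in RBM17 knockdown (adjusted p = 0.113, but 0.0483 with DESeq2 size factors and 0.0342 by its Wald test). The U2SURP call was lost without control library 1 (0.23, adjusted p = 0.141) or U2SURP knockdown library 2 (0.29, adjusted p = 0.0841). MKKS, BBS10 and BBS12 are chaperonin-like proteins that help assemble the BBSome of the cilium together with CCT. MKKS rose by 0.52 ± 0.059 in RBM17 (adjusted p = 8.64e-08) and 0.20 ± 0.059 in U2SURP knockdown (adjusted p = 0.00773; 0.17 and 0.0504 without control library 1) and was at 0.024 ± 0.059 in CHERP knockdown. BBS10 rose by 0.26 ± 0.071 in CHERP knockdown (adjusted p = 0.0036) and was at 0.16 ± 0.071 in RBM17 and 0.15 ± 0.071 in U2SURP knockdown, both called without control library 3 (0.26 each, adjusted p = 0.0012 and 0.00205). Both also passed with DESeq2 size factors (0.21 and 0.18), without the filter on low counts, in 2-group fits and without mitochondrially encoded genes (adjusted p = 0.0159 to 0.032 in RBM17 and 0.0309 to 0.0492 in U2SURP knockdown). BBS12 was at -0.07 ± 0.077, 0.018 ± 0.077 and 0.15 ± 0.076, the last called without control library 3 (0.23, adjusted p = 0.0145) and with protein-coding genes alone (0.16, adjusted p = 0.0433). With offsets for GC and length BBS12 was called lower in RBM17 knockdown (-0.22, adjusted p = 0.0086).

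HSPD1 and HSPE1, the chaperonin of mitochondria and its lid, were called higher in RBM17 and CHERP knockdown and not called in U2SURP knockdown. HSPD1 had 889.8, 1103 and 1063 CPM in RBM17, 598, 668 and 659.5 in U2SURP and 759, 879 and 901 in CHERP knockdown, against 565, 594 and 669.9 CPM in control. It rose by 0.74 ± 0.082 in RBM17 and 0.47 ± 0.081 in CHERP knockdown (adjusted p = 1.41e-07 and 5.83e-05) and was at 0.075 ± 0.081 in U2SURP knockdown (adjusted p = 0.497), where control and U2SURP knockdown libraries overlapped. HSPE1 rose by 0.80 ± 0.079 in RBM17 (adjusted p = 1.15e-08) and 0.28 ± 0.079 in CHERP knockdown (adjusted p = 0.00596; 0.18 and 0.0588 without control library 1) and was at -0.006 ± 0.079 in U2SURP knockdown.

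Of factors known to bind chaperonin gene promoters, HSF1, the main heat shock factor, rose by 0.19 ± 0.052, 0.18 ± 0.052 and 0.16 ± 0.052 in RBM17, U2SURP and CHERP knockdown (adjusted p = 0.003, 0.00735 and 0.013). The CHERP call was lost without control library 2 (0.14, adjusted p = 0.0624), and the U2SURP and CHERP values were 0.36 and 0.45 with offsets for GC content and length. HSF2 rose by 0.32 ± 0.057 in RBM17 (0.18 with those offsets) and 0.47 ± 0.057 in CHERP knockdown (adjusted p = 3.66e-05 and 2.47e-07) and was at 0.076 ± 0.057 in U2SURP knockdown, called without control library 3 (0.14, adjusted p = 0.0402). MYC was at 0.096 ± 0.049, 0.035 ± 0.049 and -0.024 ± 0.049 and was not called. In RBM17 knockdown MYC passed under several alternatives, with DESeq2 size factors (0.15, adjusted p = 0.0159, or 0.00691 by the Wald test), in a 2-group fit (0.14, adjusted p = 0.0313), without mitochondrially encoded genes (0.14, adjusted p = 0.0141) and without RBM17 knockdown library 1 or control library 3 (0.12 each, adjusted p = 0.0462 and 0.0405). These are mRNA levels and say nothing of the activity of the factors.

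Prefoldin, which passes unfolded actin and tubulin to CCT, rose in nearly all its subunit mRNAs: 6 of 6 were called higher in RBM17 knockdown (median 0.54), 5 of 6 in U2SURP knockdown (median 0.44) and 5 of 6 in CHERP knockdown (median 0.41) with 1 lower. PFDN1 rose by 0.70 ± 0.058, 0.46 ± 0.058 and 0.40 ± 0.058 in RBM17, U2SURP and CHERP knockdown, and VBP1 by 0.83 ± 0.075 in RBM17 knockdown. PFDN4 rose by 0.49 ± 0.072 in U2SURP and 0.67 ± 0.072 in CHERP knockdown. VBP1 averaged 130 ± 2.52 CPM in U2SURP and 128 ± 9.10 CPM in CHERP knockdown, against 91.8 ± 13.1 CPM in control. PFDN4 averaged 29.7 ± 1.45 CPM in RBM17 knockdown, against 23.2 ± 2.58 CPM in control (SD, n = 3 each). PFDN6 was the lower member, at -0.19 ± 0.072 in CHERP knockdown (adjusted p = 0.0341). Leaving out library 1 or 2 of that group or control library 3 ended this call (adjusted p = 0.0818, 0.0576 and 0.159). So did DESeq2 size factors (adjusted p = 0.0695, or 0.08 by the Wald test), leaving out mitochondrially encoded genes (adjusted p = 0.08) and offsets for GC and length (-0.096, adjusted p = 0.213). Of the 4 phosducin-like proteins, which bind CCT and act on its clients, 3, 2 and 3 were called higher and 0 lower. PDCL3 rose by 0.97 ± 0.081, 0.52 ± 0.081 and 0.41 ± 0.081, and TXNDC9 by 0.74 ± 0.067, 0.40 ± 0.067 and 0.25 ± 0.067 (the last 0.17 with adjusted p = 0.0679 without CHERP knockdown library 3).

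Genes of the prefoldin-like and R2TP assembly machinery, whose chaperone complexes act beside CCT, were called higher for 6 of 8 and lower for 1 of 8 in each knockdown (medians 0.59, 0.31 and 0.22 in RBM17, U2SURP and CHERP knockdown). All tested genes were called higher for 21.1% to 25.4% and lower for 22.2% to 29.3% over the same comparisons. Protein-coding genes were called higher for 29.4% to 38.7%, and for 45.5% to 55.9% where the mean was at least 100 CPM. RUVBL1, an AAA+ ATPase, rose by 1.01 ± 0.065 in RBM17 and 0.38 ± 0.064 in CHERP knockdown, PDRG1 by 0.85 ± 0.062, 0.61 ± 0.062 and 0.44 ± 0.062 in RBM17, U2SURP and CHERP knockdown, and RPAP3 by 0.35 ± 0.056 in U2SURP knockdown. RUVBL1 averaged 133 ± 3.89 CPM in U2SURP knockdown, against 108 ± 4.46 CPM in control. RPAP3 averaged 74.2 ± 1.06 CPM in RBM17 and 65.6 ± 2.40 CPM in CHERP knockdown, against 52.3 ± 4.74 CPM in control (SD, n = 3 each). PIH1D1 was the lower member in all 3, at 73.6, 71.2 and 74.6 CPM in RBM17, 68.8, 67.3 and 69.0 in U2SURP and 54.7, 49.1 and 50.5 in CHERP knockdown, against 84.1, 77.4 and 83.1 CPM in control. It fell by 0.67 ± 0.052 in CHERP (adjusted p = 2.92e-10) and 0.26 ± 0.052 in U2SURP knockdown (adjusted p = 0.000293). Its RBM17 value of -0.16 ± 0.052 (adjusted p = 0.013) lost the call without RBM17 knockdown library 2 (-0.14, adjusted p = 0.064) or control library 1 (-0.13, adjusted p = 0.0599). It was also lost with DESeq2 size factors or its Wald test (-0.10, adjusted p = 0.111 in both), in a 2-group fit (-0.11, adjusted p = 0.101) and without mitochondrially encoded genes (-0.11, adjusted p = 0.0662). Of the 5 tubulin cofactors tested of 6 listed, 4, 3 and 3 were called higher and 0, 1 and 1 lower. TBCB rose by 0.92 ± 0.063, 0.56 ± 0.063 and 0.23 ± 0.063 and ARL2 by 0.66 ± 0.056, 0.37 ± 0.056 and 0.46 ± 0.056, while TBCD fell by 0.32 ± 0.053 in U2SURP and 0.28 ± 0.053 in CHERP knockdown (-0.11, adjusted p = 0.0618, in CHERP knockdown with GC and length offsets).

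The mRNAs of the main clients went both ways. Of 15 actin and tubulin genes, 11 were called higher and 3 lower in RBM17 knockdown (median 0.41), 4 higher and 6 lower in U2SURP knockdown (median -0.10) and 4 higher and 6 lower in CHERP knockdown (median -0.06). Beside the 25.4%, 21.1% and 22.8% of all genes called higher and the 29.3%, 22.2% and 24.6% called lower, the higher counts in U2SURP and CHERP knockdown were near the level of all genes, and the lower count in RBM17 knockdown was below it. Actin and tubulin genes have near-identical copies, so reads could be split between them and single values are uncertain. ACTB had 928, 1049 and 1047 CPM in RBM17, 557, 561 and 560.2 in U2SURP and 629.6, 609 and 623 in CHERP knockdown, against 583, 586 and 632 CPM in control. It rose by 0.75 ± 0.055 in RBM17 knockdown (adjusted p = 8.09e-11) and was not called in the others, whereas ACTG1 fell by 0.37 ± 0.060 in RBM17 (adjusted p = 1.23e-05) and rose by 0.37 ± 0.060 in CHERP knockdown (adjusted p = 1.71e-05). TUBA1B, an alpha-tubulin, rose by 0.95 ± 0.076, 0.33 ± 0.075 and 0.22 ± 0.075 (the last 0.15 with adjusted p = 0.13 without control library 2, and 0.20 with 0.06 without CHERP knockdown library 3). TUBB2A, a beta-tubulin, fell by 0.46 ± 0.076 in U2SURP and 0.71 ± 0.076 in CHERP knockdown, and TUBA4A by 0.75 ± 0.097 in CHERP knockdown. In RBM17 knockdown both were instead above control. TUBB2A averaged 15.8 ± 0.924 against 11.5 ± 0.515 CPM and TUBA4A 4.90 ± 0.109 against 3.65 ± 0.291 CPM (SD, n = 3 each). TUBB4A rose by 0.26 ± 0.073 and TUBB2B fell by 0.30 ± 0.070 in U2SURP knockdown. TUBB4A averaged 13.4 ± 0.816 CPM in RBM17 and 8.45 ± 0.48 CPM in CHERP knockdown, against 8.81 ± 0.501 CPM in control. TUBG2, a gamma-tubulin, fell by 0.21 ± 0.080 in RBM17 knockdown (adjusted p = 0.029), a call lost without RBM17 knockdown library 3 (-0.10, adjusted p = 0.275) or control library 1 or 2 (-0.19 and -0.20, adjusted p = 0.094 and 0.0825). The TUBG2 call was also lost with DESeq2 size factors (-0.16, adjusted p = 0.105, or 0.111 by the Wald test), in a 2-group fit (-0.17, adjusted p = 0.114) and without mitochondrially encoded genes (-0.17, adjusted p = 0.0889).

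Of 17 other clients, mostly WD40-repeat proteins and cell cycle regulators, 15, 13 and 10 were called higher and 1, 1 and 3 lower in RBM17, U2SURP and CHERP knockdown. The share called higher was 25.4%, 21.1% and 22.8% over all genes and 38.7%, 29.4% and 29.7% over protein-coding genes. It was 55.9%, 47.9% and 45.5% over protein-coding genes with a mean of at least 100 CPM, a level that several of these clients did not reach. CDC20, the activator of the anaphase-promoting complex, rose by 0.89 ± 0.052 in RBM17 and 0.49 ± 0.052 in CHERP knockdown. HDAC2, a histone deacetylase, rose by 0.58 ± 0.061 in U2SURP and 0.70 ± 0.061 in CHERP knockdown, and VHL, the ubiquitin ligase subunit that is folded by CCT, by 0.35 ± 0.052 in U2SURP knockdown. Both were also above control in RBM17 knockdown. HDAC2 averaged 385 ± 21.8 CPM there, against 233 ± 17.7 CPM in control. VHL averaged 237 ± 7.19 CPM in RBM17 and 174 ± 5.39 CPM in CHERP knockdown, against 171 ± 8.93 CPM in control. CDC20 averaged 114.5 ± 1.93 CPM in U2SURP knockdown, against 96.1 ± 2.75 CPM in control (SD, n = 3 each). CCNE1, cyclin E1, was lower throughout, with log2 fold changes of -0.43 ± 0.084, -0.36 ± 0.084 and -0.32 ± 0.084 in RBM17, U2SURP and CHERP knockdown (adjusted p = 0.000128, 0.00128 and 0.0027). The G protein beta subunit GNB1 rose by 0.66 ± 0.049 in RBM17 knockdown, and GNB2 fell by 0.40 ± 0.051 in CHERP knockdown (-0.17 with GC and length offsets). GNB2 was instead above control in RBM17 and U2SURP knockdown, at 107.9 ± 3.49 and 84.9 ± 1.81 against 69.1 ± 2.38 CPM. GNB1 averaged 196 ± 3.81 CPM in U2SURP and 146 ± 4.83 CPM in CHERP knockdown, against 164 ± 7.01 CPM in control.

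**Figure D5:**
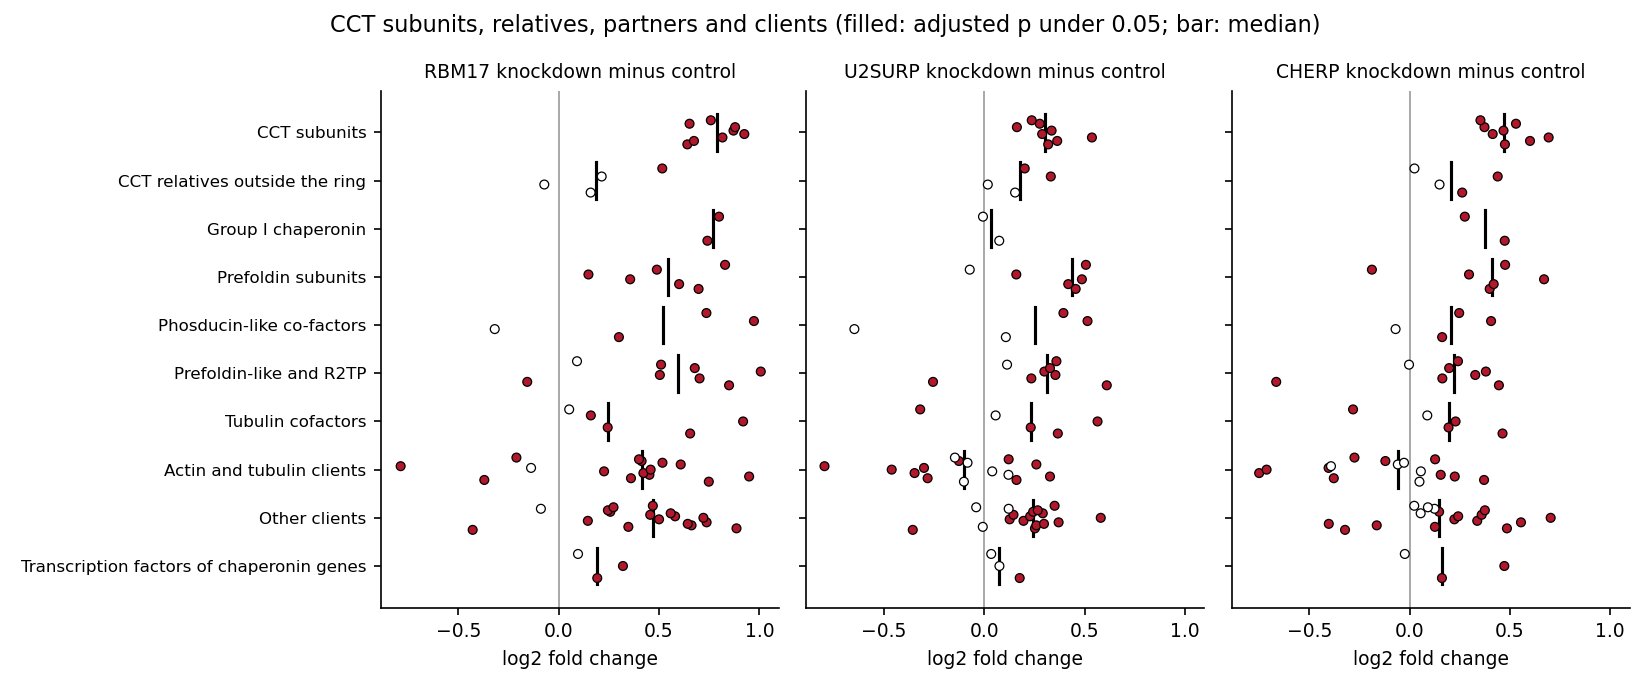
Log2 fold change against control of the CCT subunits and of the listed relatives, co-chaperones, clients and transcription factors in RBM17, U2SURP and CHERP knockdown; each point is a gene, filled where its adjusted p was under 0.05, and the vertical bar is the median of the list. The CCT subunits lie right of 0 in all 3 panels, whereas actin and tubulin genes fall on both sides.

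Several genes outside the complex had a profile over the 12 libraries closer to the mean of the 8 subunits than the subunits themselves. Likeness was the root mean square difference of log2 CPM, centred on the mean over libraries, among 7411 protein-coding genes with a mean of at least 5 CPM and an SD over the 4 group means of at least 0.5 times that of the mean subunit profile (0.324). The 6 nearest were AMZ2, a putative metalloprotease (0.035), MTCH2, a carrier-like protein of the outer mitochondrial membrane (0.036), RAP1GDS1, an exchange factor for small GTPases (0.037), ATPAF1, an assembly factor of the mitochondrial ATP synthase (0.039), NUP37, a nuclear pore protein (0.039), and DDX18, an RNA helicase (0.044). The members ran from 0.048 for CCT6A to 0.099 for CCT4 and 0.101 for CCT7, so those last were least like their own mean. DDX18, for example, had 229, 275 and 259 CPM in RBM17, 168, 189 and 184 in U2SURP and 192, 206 and 213 in CHERP knockdown, against 130.4, 138 and 146 CPM in control. AMZ2 rose by 0.73 ± 0.063, 0.32 ± 0.063 and 0.49 ± 0.063 in RBM17, U2SURP and CHERP knockdown. The profiles share libraries, depth and scaling, and the ranking is a description without a test.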

How the data were processed

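Per the labels' protocols, libraries were prepared from mRNA with a kit that keeps the strand. The authors deposited 1 table per library of raw read counts per Ensembl gene, with no rows for unassigned reads. Per the submitters' processing notes, the tools were HTSeq, SAMtools and HISAT2 2.0.5, with GRCh38. The role of each tool, the strand setting and the annotation are not given in these sources. GENCODE 29 (GRCh38) named 56996 of 60554 gene IDs. Groups were read from the labels. Library totals of 252505520 to 320986785 leave the spread between libraries as the limit of precision, and no pair of replicates agreed within sampling noise (chi-square per gene 11.7 to 51.7).

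Counts were filtered with filterByExpr (29003 genes left), given TMM factors and fitted in R 4.3.3 with edgeR 4.0.16 (robust quasi-likelihood, all 4 groups in a single fit), with Benjamini-Hochberg adjustment over all genes and calls at an adjusted p under 0.05. SE was obtained from the F statistic, as the size of the log2 fold change over its square root, and intervals are 95%. TPM divide counts by exon length. Motifs were searched by exact match in RefSeq promoter windows.

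Named beyond the members were the 3 siRNA targets, all tested relatives, mitochondrial chaperonin genes and chaperonin transcription factors, overlapping genes and pseudogenes, up to 2 called genes per direction and knockdown of each other list by smallest p, and the 6 genes most like the members. The members and lists were chosen with earlier results of these data known. Alternatives were DESeq2 1.42.0 size factors and Wald test, no filter, 2-group fits, protein-coding genes alone, no mitochondrially encoded genes, offsets for GC content and length (mgcv 1.9.3) and leaving out each library. Leaving out control library 3 together with RBM17 knockdown library 2 was added after seeing the data. The fit was also run on simulated counts of 2 groups with the same spread for every gene. Those counts lack the uneven differences between replicates seen here, so they do not test the fit under them. Figures were drawn with matplotlib 3.10.9.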

Additional observations from a re-analysis of the deposited data

How the results depend on the processing

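Against control, 8 of 8 members were called higher in RBM17 and CHERP knockdown under every alternative run, and 7 or 8 in U2SURP knockdown, CCT7 being the member lost. RBM17 minus U2SURP knockdown gave 8 of 8 under every alternative. RBM17 minus CHERP knockdown gave 5 members, with 4 to 8 when a library was left out. CCT2 lost its call there with protein-coding genes alone and with offsets for GC content and length as well. U2SURP minus CHERP knockdown gave 3, with 5 without a filter on low counts, 6 in a fit of both groups alone, 6 with protein-coding genes alone, 6 with offsets for GC content and length, and 1 to 4 when a library was left out. No paired analysis was possible because replicate numbers follow accession order and the library numbers in the labels differ between groups. For each alternative and comparison, the change in log2 fold change from the main fit was taken gene by gene. Its median over genes lay between -0.08 and 0.055.

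Over all results for single genes, 2002 values kept direction and side of the threshold, 56 passed it, 47 no longer did and 27 changed sign. None of the last was called in either setting, and the cause was not tested. They were, as log2 fold changes: CCT3 in RBM17 minus CHERP knockdown (-0.007 with protein-coding genes alone, -0.041 with offsets); BBS12 in RBM17 knockdown (-0.126 to 0.014 with a library left out, 0.014 without control library 3, 0.026 also without RBM17 knockdown library 2) and in U2SURP knockdown (-0.061 with offsets, -0.001 without U2SURP knockdown library 2, -0.011 and -0.036 without control library 1 and 2); CHERP in U2SURP knockdown (0.001 with DESeq2 size factors and 0.001 by its Wald test, 0.015 without mitochondrially encoded genes, 0.10 with offsets); HSPE1 in U2SURP knockdown (0.021 with DESeq2 size factors and Wald test, 0.008 in a fit of both groups, 0.036 without mitochondrially encoded genes, 0.038 without U2SURP knockdown library 2, -0.098 to 0.090 with a library left out, 0.090 without control library 3 and 0.091 also without RBM17 knockdown library 2). HSF2 in U2SURP knockdown was -0.015 with offsets. MKKS in CHERP knockdown was -0.022 with offsets, -0.036 to 0.082 with a library left out, -0.036 without CHERP knockdown library 1 and -0.011 without control library 1. MYC in CHERP knockdown was 0.013 without mitochondrially encoded genes, 0.012 with offsets, -0.044 to 0.005 with a library left out, 0.005 without control library 3 and 0.005 also without RBM17 knockdown library 2.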
